A study of Mus musculus with 9 samples.

Results

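The enzymes described here activate, inactivate or convert steroid hormones in the mouse uterus. They were taken by symbol from a list of 10 genes: Srd5a1, Akr1c14, Hsd17b11, Hsd17b2, Hsd17b4, Hsd17b1, Hsd11b1, Hsd11b2, Sult1e1 and Sts. Of these 10, 9 had a row among the 34619 unique symbols of the files, 7 reached the level for testing, and Sts, which encodes steroid sulfatase, is not analysed here. The 9 libraries of poly(A) RNA came from uterus of female WT mice of the outbred CD-1 (ICR) stock, bought at 7 to 8 weeks of age, given 1 week to settle and kept on estrogen-free food. The groups were mice given bisphenol B (BPB) by gavage for 28 days at a daily dose of 300 µg per kg, mice given bisphenol AF (BPAF) at the same dose and time, and control mice given corn oil, with 3 libraries each. Per the title of the study, the question was whether either exposure raises the risk of uterine disease. The labels give no stage of the estrous cycle and do not say whether each library is 1 mouse, so p-values measure the spread between these libraries.

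Steroid signalling in the uterus depends on the hormone that arrives from the ovary and on enzymes in the tissue that convert it. Steroid reductases and hydroxysteroid dehydrogenases turn progesterone, androgens, estrogens and corticosterone into forms that bind their receptors more or less strongly. Sulfotransferases add a sulfate that keeps estrogen off its receptor. Srd5a1 and Akr1c14 catalyse successive steps: Srd5a1, the type 1 steroid reductase, saturates the first ring of progesterone and testosterone, and Akr1c14, an aldo-keto reductase, reduces the products further to hydroxysteroids. In mice Srd5a1 is known for its part in clearing progesterone from the cervix before birth.

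Levels are given as FPKM, read fragments per length of gene and depth of library, a scale on which genes can be compared by level. Differences are on the log2(FPKM + 1) scale, exposed minus control or BPAF minus BPB, with a standard error (SE) and a 95% interval from limma. A gene was said to rise or fall at an adjusted p under 0.05 over all 13743 genes tested. The totals behind the scaling were 12620217 to 15616763 reads per library. All 9 uterus marker genes on a list of receptors and developmental factors averaged 1 FPKM or more in control, and their sum was 158 to 234 FPKM in BPB, 213 to 342 FPKM in BPAF and 129 to 198 FPKM in control. By gene they went both ways, and 0 were called. Pgr, the progesterone receptor gene, was below every control in each exposed library. By mean, Pgr, Esr1 and Emx2 were below control in both exposed groups. Hoxa10, Hoxa11, Hoxd10, Msx1 and Foxa2 were above it, and Wnt7a was much the same in BPB and higher in BPAF. The libraries also differed in other cell types. The sum of 15 urothelium genes was 2170 to 3650 FPKM in BPB, 1880, 15.4 and 17.4 FPKM in BPAF 1, 2 and 3, and 30.9 to 90.3 FPKM in control. Of these 15 genes 12 rose in BPB, and Upk3a and Foxa1 were listed at 0 in BPAF 2, BPAF 3 and all 3 controls. The sum of 7 uterine stroma genes was 930 to 2100 FPKM in BPB, 956 to 1790 FPKM in BPAF and 2370 to 3260 FPKM in control. The sum of 8 smooth muscle genes was 7440 to 11900 FPKM in BPB, 1050 to 3440 FPKM in BPAF and 3570 to 5690 FPKM in control, with no overlap between any pair of groups. The part of these cell types in the differences below was not tested. In these bulk samples, fewer cells of a type and less RNA per cell cannot be told apart.

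The stretches before the start sites of the 3 enzymes that differed most between the 3 groups are shown first, because the levels of Srd5a1 and Akr1c14 ran in opposite directions and those of Akr1c14 and Hsd17b11 ran together. Each is the 250 bases upstream of the gene's RefSeq start in build GRCm38.p6, printed 5′ to 3′ on the strand of the gene. Srd5a1 lies at chr13:69611464-69611713 on the minus strand, Akr1c14 at chr13:4059341-4059590 on the plus strand and Hsd17b11 at chr5:104021797-104022046 on the minus strand. Capitals mark matches, on either strand, to the GC box GGGCGG, the CCAAT box CCAAT and the core GCGTG of the xenobiotic response element.
Srd5a1: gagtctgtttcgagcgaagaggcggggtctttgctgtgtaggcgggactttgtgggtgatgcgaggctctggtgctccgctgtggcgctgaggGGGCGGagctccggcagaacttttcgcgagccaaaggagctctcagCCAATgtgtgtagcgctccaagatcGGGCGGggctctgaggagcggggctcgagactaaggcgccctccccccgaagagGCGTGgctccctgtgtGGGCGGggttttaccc
Akr1c14: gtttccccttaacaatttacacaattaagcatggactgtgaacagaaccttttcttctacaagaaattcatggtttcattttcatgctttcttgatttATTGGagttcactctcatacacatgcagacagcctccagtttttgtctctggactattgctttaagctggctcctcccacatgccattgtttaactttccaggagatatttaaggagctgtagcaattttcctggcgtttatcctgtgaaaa
Hsd17b11: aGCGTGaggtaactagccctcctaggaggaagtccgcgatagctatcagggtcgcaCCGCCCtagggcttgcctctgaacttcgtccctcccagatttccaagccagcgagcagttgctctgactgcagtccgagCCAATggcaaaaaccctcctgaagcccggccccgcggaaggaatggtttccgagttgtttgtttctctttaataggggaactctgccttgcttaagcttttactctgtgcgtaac

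The 3 stretches differed in base composition: 64.8% of the Srd5a1 bases, 38.8% of the Akr1c14 bases and 54.8% of the Hsd17b11 bases were G or C, against a median of 52.4% over 32851 mouse promoters of the same length. Srd5a1 held 3 GC boxes, Hsd17b11 held 1 and Akr1c14 held 0, and 32.7% of all promoters had at least 1. Each of the 3 had 1 CCAAT box, a motif found in 33.8% of promoters. The core GCGTG was found once in Srd5a1 and once in Hsd17b11 and in 28.2% of promoters. None of the 3 held the estrogen response half-site GGTCA, which 35.2% of promoters had, the progesterone and glucocorticoid half-site AGAACA, which 16.1% had, or the TATA box TATAAA, which 12.4% had. These are matches of letters in a short window. Of the 10 enzymes, 5 had an entry in the promoter table.

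In the BPB uteri Akr1c14, the second enzyme of the reduction steps, fell to a mean of 16.7 ± 12.8 FPKM, against 147 ± 36.6 FPKM in control (SD, n = 3 each), so that the control mean was 8.79 times that of BPB. For Srd5a1, the first enzyme, the mean of BPB was 62.0 ± 18.5 FPKM and that of control 2.72 ± 1.5 FPKM, a ratio of 22.8 that did not pass the threshold. Of the 7 tested enzymes 1 was called, lower in BPB, where the background over all tested genes was 2.55% called in either direction, 0.502% called lower and 2.05% called higher. At an unadjusted p under 0.05 there were 4 of the 7, and 17.4% of all tested genes. There was no overlap between BPB and control libraries in 5 of the 7, against 25.6% of all tested genes. Of these 5, Srd5a1, Hsd11b1 and Hsd17b4 lay above control (3, against 19.5% of all tested genes) and Akr1c14 and Hsd17b11 below it (2, against 6.1%).

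**Figure D1:**
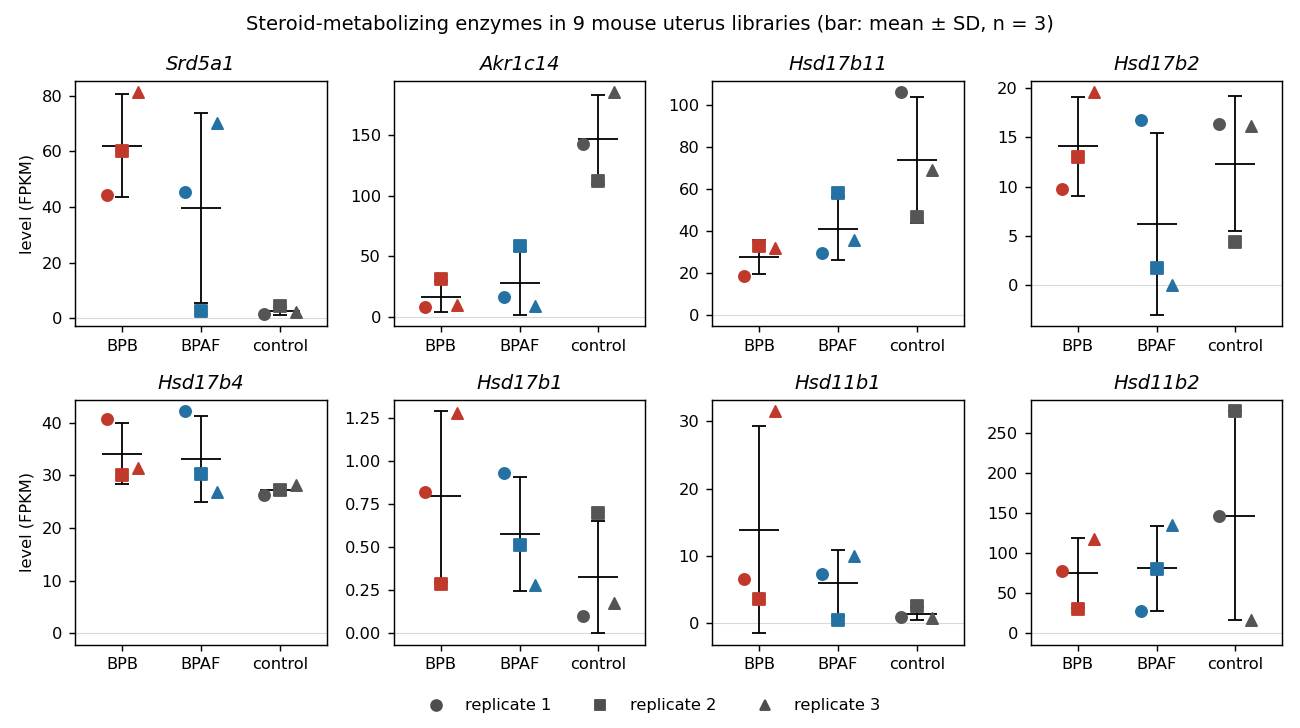
Level in FPKM (vertical axes, linear, with a scale for each gene) of 8 steroid-metabolizing enzymes in BPB, BPAF and control uteri; points are libraries, shaped by replicate number, and horizontal and vertical bars are the mean ± SD of 3 libraries. Srd5a1 was above 44 FPKM in 5 of the 6 exposed libraries and below 5 FPKM in BPAF 2 and the controls, and Akr1c14 was below 60 FPKM in all 6 exposed libraries and above 110 FPKM in the controls.

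Akr1c14 had 8.39, 31.4 and 10.2 FPKM in BPB 1, 2 and 3, then 16.9, 58.6 and 9.56 FPKM in BPAF 1, 2 and 3, and 142, 112 and 185 FPKM in controls 1, 2 and 3. All 6 exposed libraries were below the lowest control, and BPAF 2 was nearest to it. In BPB the log2 difference was -3.26 (SE 0.65, 95% interval -4.72 to -1.8, limma adjusted p = 0.0397). This call was lost, with the direction kept, when any 1 of the 6 libraries of the comparison was left out, with adjusted p of 0.0751 to 0.155 in limma. It was also lost, at a similar difference, with a pseudocount of 0.1 (adjusted p = 0.0539), without a filter (0.0738) and with voom on recovered reads (0.0662), and it was kept with the 6 libraries alone (0.016). In BPAF the difference was -2.69 (SE 0.65, 95% interval -4.15 to -1.23), which did not pass (limma, adjusted p = 0.245). The urothelium sum was above every control in 4 of these 6 libraries and below every control in BPAF 2 and BPAF 3, and its part in the result was not tested. The stroma sum, like Akr1c14, was lower in all 6 exposed libraries than in any control, and its part in the result was not tested. Most of this sum came from Col1a1, Col3a1, Dcn and Lum, and 0 of its 7 genes were called in either exposed group. By mean, those genes and Vcan were below control in both exposed groups. Pdgfra was lower in BPB and much the same in BPAF. Hand2 was higher, with means of 27.3 FPKM in BPB and 33.7 FPKM in BPAF, against 11.1 FPKM in control. By library the stroma sum was 2100, 1350 and 930 FPKM in BPB 1, 2 and 3, then 1790, 956 and 1070 FPKM in BPAF 1, 2 and 3, and 2370, 3260 and 2810 FPKM in controls 1, 2 and 3. Within the exposed libraries the sum did not run with Akr1c14. BPB 1 had the highest sum and the lowest Akr1c14, and BPAF 2 had the highest Akr1c14 at a sum of 956 FPKM. In control 3 Lum (1160 FPKM) and Dcn (1190 FPKM) were high. Pdgfra (3.23 FPKM) was there the lowest of all 9 libraries, and Col1a1 (96.0 FPKM) was below every BPB library. Akr1c14 belongs to a family of similar genes, and a pseudogene overlaps it in GENCODE M21, so its value is uncertain as far as the authors' counting could split reads between copies.

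Srd5a1 had 44.5, 60.2 and 81.3 FPKM in BPB 1, 2 and 3, then 45.5, 2.73 and 70.3 FPKM in BPAF 1, 2 and 3, and 1.58, 4.42 and 2.16 FPKM in controls 1, 2 and 3. The libraries fell into a high set of 5 and a low set of 4, and BPAF 2 lay within the range of the controls. In whole reads, recovered from the FPKM values, the high set had 1906 to 3557 reads and the low set 78 to 200. The log2 difference in BPB was 4.11 (SE 0.92, 95% interval 2.04 to 6.19, limma adjusted p = 0.0532). It passed when the 6 libraries of the comparison were fitted alone (adjusted p = 0.00205 in limma) and when BPAF 2 or BPAF 3 was left out of the shared estimate of the spread (adjusted p = 0.0108 and 0.042 in limma). The difference did not pass in 12 of 15 alternatives. Among these were a pseudocount of 0.1 (limma, adjusted p = 0.0637), no filter (0.0966), the replicate block (0.0916) and voom on recovered reads (0.11). Any BPB or control library left out gave 0.0925 to 0.192. In BPAF it was 2.71 (SE 0.92, 95% interval 0.63 to 4.79, limma adjusted p = 0.309), and it depended on the library left out. It was 4.03 without BPAF 2 (limma, adjusted p = 0.046), 2.2 without BPAF 1 (0.53) and 1.9 without BPAF 3 (0.545), and BPAF 2 was the library that lay with the controls. The urothelium sum was high in 4 of the 5 libraries with high Srd5a1, and its part there was not tested. In BPAF 3 Srd5a1 was at 70.3 FPKM while the urothelium sum was 17.4 FPKM, below every control. By gene, Upk1a, Upk1b and Gata3 were above every control there, and Upk3b, Krt5 and Krt15 below. The sum of 8 adipocyte genes was above every control in BPB 1, BPB 2, BPAF 1 and BPAF 3. It was within the control range in BPB 3 and lowest in BPAF 2. Fabp4 alone of the 8 was higher in all 5 libraries with high Srd5a1 (61.1 to 185 FPKM) than in the other 4 (0.454 to 37.3 FPKM). The part of adipocytes was not tested either. Nsun2, a gene that overlaps Srd5a1 on the opposite strand in GENCODE M21, had 15.1 to 19.1 FPKM in BPB, 23.3 to 24.8 FPKM in BPAF and 15.4 to 18.5 FPKM in control, without the high and low sets. Gm17108, which overlaps Srd5a1 on the same strand, had 0.429, 0.601 and 1.06 FPKM in BPB 1, 2 and 3, then 0.163, 0.0238 and 0.598 FPKM in BPAF 1, 2 and 3, and 0.023, 0.15 and 0.0275 FPKM in controls 1, 2 and 3, higher in the 5 libraries with high Srd5a1 than in the other 4. The kit kept the strand, but whether the counting used it is not given, so reads of overlapping genes may be mixed.

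**Figure D2:**
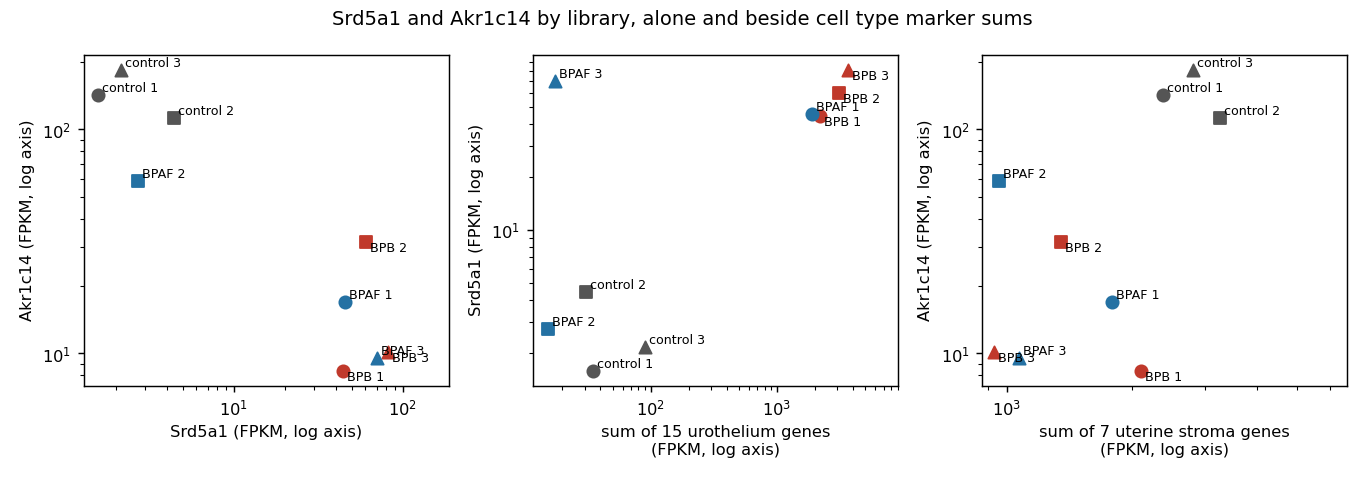
Each point is 1 library, coloured by group and shaped by replicate, on log axes in FPKM: Akr1c14 against Srd5a1 (left), Srd5a1 against the sum of 15 urothelium genes (middle) and Akr1c14 against the sum of 7 uterine stroma genes (right). BPAF 2 lies with the controls for Srd5a1 and between controls and the other exposed libraries for Akr1c14, and BPAF 3 has high Srd5a1 at a low urothelium sum.

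The ratio of Akr1c14 to Srd5a1, taken within a library and so free of its scaling, put the same libraries apart. This ratio is made of the values given above and adds no evidence to them. It was 0.189, 0.521 and 0.126 in BPB 1, 2 and 3, then 0.371 in BPAF 1, 21.5 in BPAF 2 and 0.136 in BPAF 3, against 89.8, 25.4 and 85.6 in controls 1, 2 and 3. Message for the first enzyme exceeded that for the second in 5 exposed libraries, and the reverse held in BPAF 2 and all controls. Akr1c14 made up 3.15% to 15.6% of the summed FPKM of the 9 enzymes in BPB, 3.32% to 25.2% in BPAF and 23.6% to 58.2% in control. Srd5a1 made up 21.5% to 29.8% in BPB, 1.17% to 24.4% in BPAF and 0.36% to 0.928% in control.

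Hsd17b11, a short-chain dehydrogenase of lipid droplets whose human form can act on androgen metabolites, did not pass the test in either exposed group. It had 18.4, 32.9 and 31.7 FPKM in BPB 1, 2 and 3, then 29.3, 57.9 and 35.8 FPKM in BPAF 1, 2 and 3, and 106, 46.5 and 69.1 FPKM in controls 1, 2 and 3. The 3 BPB libraries were below every control, and BPAF 2 was above control 2. The log2 difference was -1.35 in BPB (SE 0.39, limma adjusted p = 0.108) and -0.81 in BPAF (SE 0.39, limma adjusted p = 0.415).

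Of the 10 enzymes described here, those that interconvert estradiol and estrone gave no call. Hsd17b2, which oxidizes estradiol to the weaker estrone, had 9.74, 13.0 and 19.6 FPKM in BPB 1, 2 and 3, then 16.8, 1.77 and 0 FPKM in BPAF 1, 2 and 3, and 16.4, 4.4 and 16.2 FPKM in controls 1, 2 and 3. The BPAF libraries differed most among themselves: BPAF 1 had 276 reads, BPAF 2 had 33, and BPAF 3 had 0, which allows a level of up to 0.175 FPKM by counting error alone (3 reads). Its log2 difference was 0.32 in BPB (SE 0.91, limma adjusted p = 0.909) and -1.68 in BPAF (SE 0.91, limma adjusted p = 0.463). With 1 library left out these ran from -0.24 (without control 2) to 0.6 (without control 1) in BPB and from -2.82 (without BPAF 1) to -0.74 (without BPAF 3) in BPAF. Hsd17b1, which reduces estrone to estradiol and is best known from the ovary, was low throughout, with 0.287 to 1.28 FPKM in BPB, 0.279 to 0.932 FPKM in BPAF and 0.099 to 0.7 FPKM in control. It rested on 2 to 23 reads per library and stayed below the level for testing. Exact permutation tests of its group means, two-sided and with a smallest possible p of 0.1, gave p = 0.2 for BPB and p = 0.5 for BPAF against control, and p = 0.6 for BPAF against BPB. Hsd17b4, a peroxisomal enzyme of fatty acid oxidation that also carries a steroid dehydrogenase activity, was the steadiest, with 30.1 to 40.8 FPKM in BPB, 26.8 to 42.3 FPKM in BPAF and 26.3 to 28.1 FPKM in control. Its highest level was 1.61 times its lowest, and its log2 difference was 0.3 in BPB (95% interval -0.25 to 0.86, limma adjusted p = 0.587) and 0.25 in BPAF (95% interval -0.31 to 0.8, limma adjusted p = 0.694). Under median-ratio scaling of the libraries these differences were 0.07 in BPB and -0.05 in BPAF, so its place above control in BPB depended on the scaling.

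Sult1e1, the estrogen sulfotransferase that inactivates estrogen, was close to undetected. BPB 1 had 2 reads, a level of 0.11 FPKM, and the other 8 libraries had 0 reads, which allows up to 0.155 to 0.191 FPKM by counting error alone. A difference between groups was not detectable at this depth.

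The enzymes of glucocorticoid metabolism varied widely between libraries of the same group. Hsd11b1, which makes active corticosterone from its inert keto form, had 6.5, 3.57 and 31.6 FPKM in BPB 1, 2 and 3, then 7.28, 0.478 and 9.996 FPKM in BPAF 1, 2 and 3, and 0.873, 2.55 and 0.804 FPKM in controls 1, 2 and 3. The BPB libraries were all above the controls, BPB 3 stood far above the others, and BPAF 2 was the lowest of all 9. The log2 difference in BPB was 2.18 (SE 0.86, 95% interval 0.26 to 4.11, limma adjusted p = 0.226) and in BPAF 1.16 (SE 0.86, limma adjusted p = 0.581). With 1 library left out these ran from 1.36 (without BPB 3) to 2.77 (without BPB 2) in BPB and from 0.61 (without BPAF 3) to 2.06 (without BPAF 2) in BPAF. The sum of 8 adipocyte genes was 877, 306 and 107 FPKM in BPB 1, 2 and 3, then 656, 6.73 and 332 FPKM in BPAF 1, 2 and 3, and 84.9 to 109 FPKM in control. It was lowest in BPAF 2, as Hsd11b1 was, while BPB 3, with the highest Hsd11b1, was within the control range, and its part in these levels was not tested. Lamb3, a laminin gene whose span overlaps Hsd11b1 on the opposite strand in GENCODE M21, had 2.22 to 7.67 FPKM in BPB, 4.12 to 4.6 FPKM in BPAF and 5.01 to 10.6 FPKM in control. Hsd11b2, which inactivates corticosterone, had 77.5, 30.3 and 118 FPKM in BPB 1, 2 and 3, then 28.5, 80.2 and 135 FPKM in BPAF 1, 2 and 3, and 146, 278 and 16.6 FPKM in controls 1, 2 and 3. The 3 groups overlapped, and control 3 was the lowest of all libraries while control 2 was the highest. Its log2 difference was -0.44 in BPB (SE 0.99, limma adjusted p = 0.876) and -0.38 in BPAF (SE 0.99, limma adjusted p = 0.894). It was 0.38 in BPB and 0.44 in BPAF without control 2, and -1.61 in BPB and -1.56 in BPAF without control 3.

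The order of levels differed between groups for some enzymes. In BPB, Hsd11b2 (75.2 ± 43.8 FPKM) and Srd5a1 (62.0 ± 18.5 FPKM) led, followed by Hsd17b4 (34.1 ± 5.82 FPKM), Hsd17b11 (27.7 ± 8.02 FPKM), Akr1c14 (16.7 ± 12.8 FPKM), Hsd17b2 (14.1 ± 5.01 FPKM) and Hsd11b1 (13.9 ± 15.4 FPKM). In BPAF, Hsd11b2 (81.3 ± 53.3 FPKM) led, then Hsd17b11 (41.0 ± 15.02 FPKM), Srd5a1 (39.5 ± 34.2 FPKM), Hsd17b4 (33.1 ± 8.13 FPKM), Akr1c14 (28.3 ± 26.4 FPKM), Hsd17b2 (6.19 ± 9.24 FPKM) and Hsd11b1 (5.92 ± 4.9 FPKM). In control, Hsd11b2 (147 ± 131 FPKM) and Akr1c14 (147 ± 36.6 FPKM) led, then Hsd17b11 (73.9 ± 30.1 FPKM), Hsd17b4 (27.2 ± 0.911 FPKM), Hsd17b2 (12.3 ± 6.85 FPKM), Srd5a1 (2.72 ± 1.5 FPKM) and Hsd11b1 (1.41 ± 0.989 FPKM). Hsd17b1 and Sult1e1 came last in each group. In BPB the libraries of Srd5a1 lay above those of Hsd17b4, and among the other neighbours down to Hsd11b1 the libraries overlapped. In BPAF all neighbours from Hsd11b2 to Hsd17b1 overlapped. In control Akr1c14 lay above Hsd17b11, Hsd17b11 above Hsd17b4 and Hsd17b4 above Hsd17b2, while Hsd11b2 overlapped Akr1c14, Hsd17b2 overlapped Srd5a1 and Srd5a1 overlapped Hsd11b1. These are levels per length and were not tested between genes.

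In BPAF uteri 0 of the 7 tested enzymes were called against control by limma, where the background was 0.0218% of all tested genes called, 0.00728% higher and 0.0146% lower in BPAF. At an unadjusted p under 0.05 there were 2, Akr1c14 and Srd5a1, and 12.8% of all tested genes reached that level. A second limma fit with voom weights on the recovered reads also called 0. There was no overlap between BPAF and control libraries in 1 of the 7, Akr1c14, against 16.8% of all tested genes (14.3% above control and 2.5% below it). BPB and BPAF were set against the same 3 controls, so the 2 sets of differences are not independent.

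**Figure D3:**
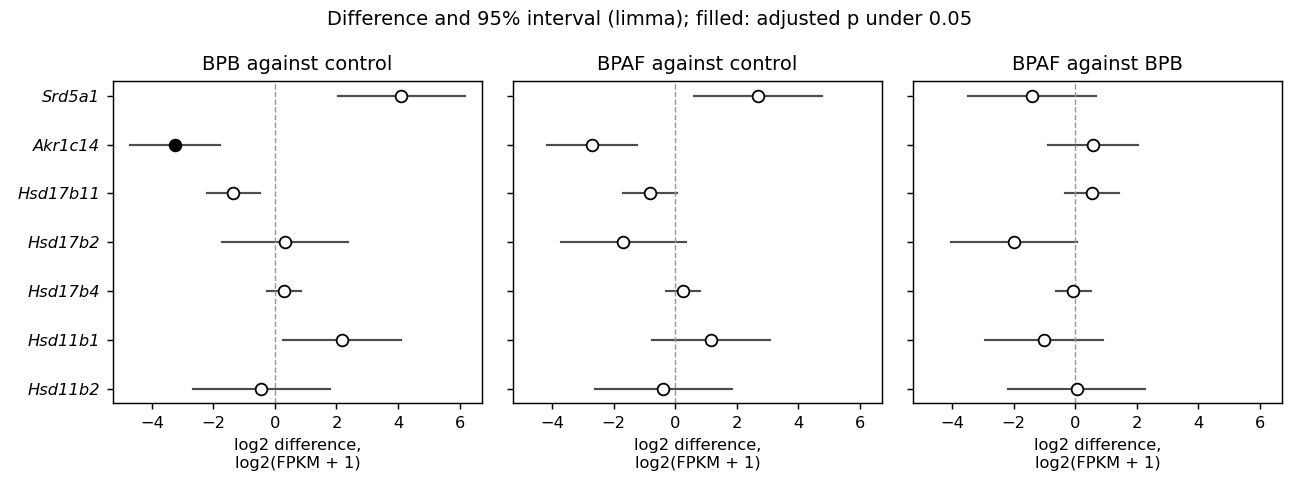
Difference in log2(FPKM + 1) (horizontal axes) with its 95% interval, unadjusted for the number of genes, for the 7 tested enzymes in 3 comparisons; filled points passed an adjusted p under 0.05 in limma. Akr1c14 in BPB against control, at -3.26, is the filled point, and in BPAF against BPB the 7 intervals of this fit of all 9 libraries, without a block, include 0.

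BPB and BPAF share the frame of a pair of phenol rings and differ in the groups on the carbon between the rings, which are a methyl and an ethyl group in BPB and a pair of trifluoromethyl groups in BPAF. At the same dose by mass and the same time, the 7 tested enzymes gave 7 differences between the compounds, and 0 passed in limma, where the background was 0.24% of all tested genes. At an unadjusted p under 0.05 there were 0, against 6.75% of all tested genes, voom on recovered reads gave 0, and the libraries of the groups overlapped for each of the 7, against 13.0% of all tested genes without overlap. Same-numbered BPAF and BPB libraries deviated together, but the labels do not say that the numbers mark a shared litter or batch. With the replicate number as a block, the count over all tested genes was 0 in place of 33 and that of the enzymes was 0 likewise. Without a block the count over all tested genes was also 0 with the 6 libraries alone, with a pseudocount of 0.1 and with voom. Without the block, Hsd17b2 had a mean of 6.19 FPKM in BPAF and 14.1 FPKM in BPB and a log2 difference of -1.99 (95% interval -4.04 to 0.05, limma adjusted p = 0.753). It was -3.13 without BPAF 1 (limma, adjusted p = 0.0517) and -1.05 without BPAF 3 (0.858). For Srd5a1 it was -1.4 (95% interval -3.48 to 0.67, limma adjusted p = 0.939) and for Akr1c14 0.57 (95% interval -0.88 to 2.03, limma adjusted p = 0.99). The interval of this fit was narrowest for Hsd17b4 (difference -0.06, 95% interval -0.61 to 0.5, limma adjusted p = 0.998) and widest for Hsd11b2 (difference 0.05, 95% interval -2.17 to 2.27, limma adjusted p = 0.998).

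With the block, fitted in the 6 libraries of BPAF and BPB, the differences were the same and most intervals were narrower. Those of Hsd17b11 and Hsd11b1 then excluded 0. For Hsd17b11 the difference was 0.54 (SE 0.2, 95% interval 0.03 to 1.05, limma adjusted p = 0.376), higher in BPAF in 3 of 3 pairs. For Hsd11b1 it was -1.02 (SE 0.39, 95% interval -2.03 to -0.01, limma adjusted p = 0.382), higher in BPAF in 1 of 3 pairs. These were 2 of 7 enzymes at an unadjusted p under 0.05, where 13.0% of all tested genes reached that level, and neither passed the adjustment. This fit was added after the values were seen. Its block was chosen from these same libraries, so the 2 intervals do not support a difference between the compounds. For Akr1c14 the blocked interval was -0.09 to 1.23, for Srd5a1 -3.55 to 0.74 and for Hsd17b2 -4.39 to 0.4. An interval that includes 0 does not show that the compounds act alike.

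Other genes of steroid metabolism were described from a list. Of 49 genes on a list covering synthesis, cofactors, further dehydrogenases and reductases, sulfation and estrogen hydroxylation, 49 had a row, 32 were tested and 17 stayed below the level for testing. In BPB against control 2 of the 32 rose and 0 fell, where 2.05% of all tested genes were called higher and 0.502% lower, and the median log2 difference was 0.09, against 0.15 over all tested genes. In BPAF against control 0 of 32 were called (median 0.1, against 0.21 over all tested genes), and in BPAF against BPB 0 of 32 (median 0.01, against 0.07). At an unadjusted p under 0.05 in limma there were 8 of 32 in BPB against control (17.4% of all tested genes), 2 of 32 in BPAF against control (12.8%) and 2 of 32 in BPAF against BPB (6.75%), and voom on recovered reads called 0 of 32 in all 3. For the 7 enzymes the medians were 0.3, -0.38 and -0.06 in the same 3 comparisons. Of the synthesis genes 5 of 13 were tested. Cyp19a1, which encodes aromatase, Hsd3b3 and Hsd3b6 were listed at 0 in all 9 libraries, as was the dehydrogenase gene Hsd17b3. Cyp11a1, the side chain cleavage enzyme, had 0.142 to 0.216 FPKM in BPB, 0.128 to 0.217 FPKM in BPAF and 0 to 1.89 FPKM in control.

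The genes that rose in BPB were Hsd17b14 and Cyp1a1, and each call depended on the processing. Both reached 1 FPKM in the 3 BPB libraries alone, so they entered the test only through the group in which they were high, and the count of 2 is no support for a change in the list. Hsd17b14, which oxidizes the hydroxyl of estradiol in the human enzyme, had 1.49, 2.76 and 2.83 FPKM in BPB 1, 2 and 3, then 0.376, 0 and 0.383 FPKM in BPAF 1, 2 and 3, and 0.0798, 0.0652 and 0.0477 FPKM in controls 1, 2 and 3. The log2 difference in BPB was 1.63 (SE 0.25, limma adjusted p = 0.0213), on 72 to 143 reads in BPB and 2 to 4 in control. This call was kept without a filter (adjusted p = 0.0256) and was lost in 8 of 15 alternatives, among them voom on recovered reads (log2 difference 4.93, adjusted p = 0.0821). Cyp1a1, a cytochrome P450 that hydroxylates estrogen and is induced through the aryl hydrocarbon receptor, had 1.1, 4.72 and 5.1 FPKM in BPB 1, 2 and 3, then 0.476, 0.131 and 0.314 FPKM in BPAF 1, 2 and 3, and 0.177, 0.303 and 0.121 FPKM in controls 1, 2 and 3 (log2 difference in BPB 1.8, SE 0.38, limma adjusted p = 0.0466). The Cyp1a1 call was lost in 14 of 15 alternatives, among them no filter (adjusted p = 0.0754), with adjusted p of 0.0142 to 0.175 over all 15, while the direction was kept. Both were highest in the 3 libraries with the highest urothelium sums, while BPAF 1, with a urothelium sum of 1880 FPKM, was below 0.5 FPKM for both. The part of urothelial RNA in these levels was not tested.

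A further 4 genes on that list had the next smallest p in the joint test of the 3 groups and did not pass. Cyp1b1, a second estrogen-hydroxylating P450, averaged 6.19 ± 2.19 FPKM in BPB, 2.78 ± 3.27 FPKM in BPAF and 0.278 ± 0.264 FPKM in control (limma, adjusted p = 0.0663 in BPB, 0.00639 with the 6 libraries alone, 0.0204 without BPAF 2 and 0.0298 without BPAF 3). In BPB Cyp1b1 did not pass in 12 of 15 alternatives, among them a pseudocount of 0.1 (limma, adjusted p = 0.108) and voom on recovered reads (0.191). Like Srd5a1 it was high in BPAF 1 and 3 (1.9 and 6.4 FPKM) and low in BPAF 2 (0.0401 FPKM). Cyp21a1, the steroid hydroxylase of the adrenal cortex, averaged 0.716 ± 0.938 FPKM in BPB, 10.7 ± 9.32 FPKM in BPAF and 19.1 ± 17.4 FPKM in control (limma, adjusted p = 0.148 in BPB, 0.0433 with the 6 libraries alone and 0.0378 without BPAF 3), and its value is uncertain where reads fell on the similar pseudogene copy. In BPB Cyp21a1 did not pass in 13 of 15 alternatives, among them a pseudocount of 0.1 (limma, adjusted p = 0.204) and voom on recovered reads (0.377). Hsd17b10, a mitochondrial dehydrogenase, averaged 37.0 ± 6.69 FPKM in BPB, 42.7 ± 10.6 FPKM in BPAF and 22.9 ± 1.54 FPKM in control (limma, adjusted p = 0.221 in BPB and 0.301 in BPAF). H2-Ke6, the name in the files for Hsd17b8, averaged 8.18 ± 1.62 FPKM in BPB, 6.72 ± 1.55 FPKM in BPAF and 4.33 ± 1.33 FPKM in control (limma, adjusted p = 0.169 in BPB and 0.43 in BPAF).

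**Figure D4:**
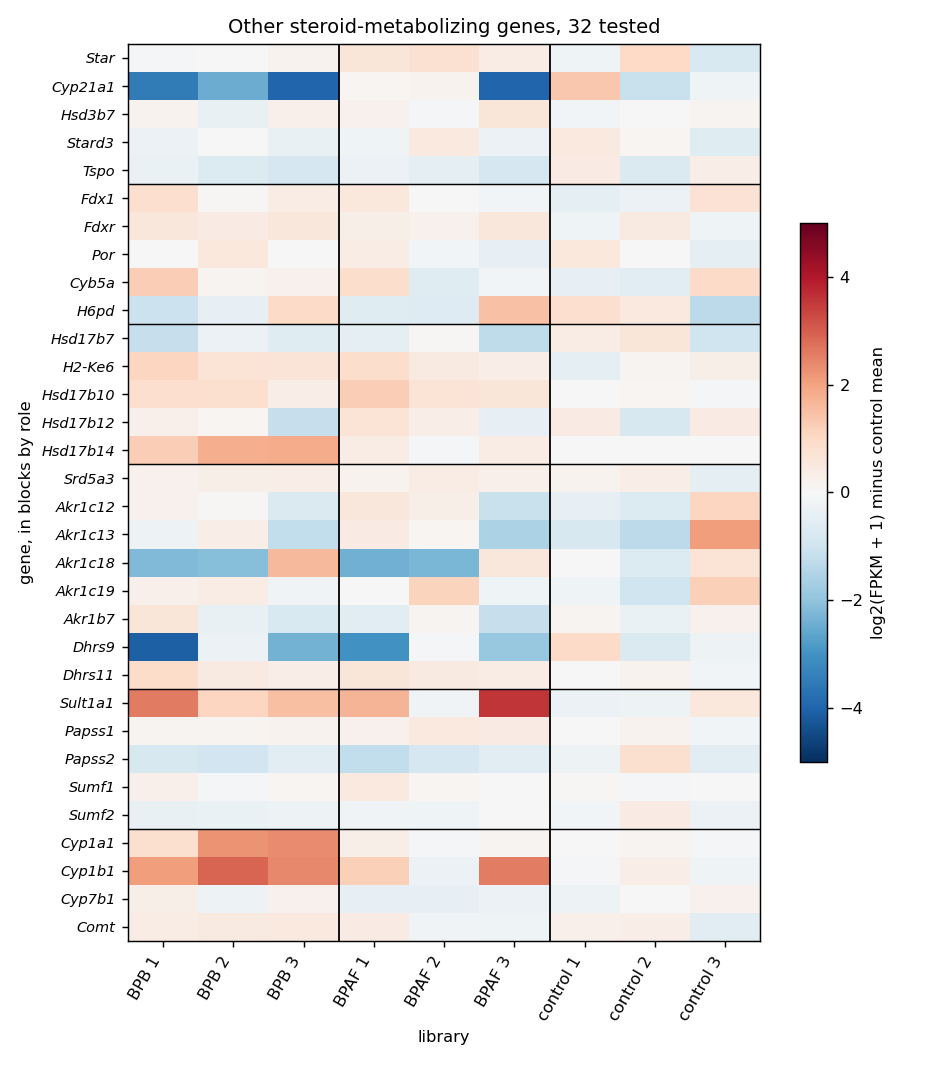
Rows are 32 tested genes of steroid metabolism in blocks by role (from the top: synthesis, electron donors and cofactor, dehydrogenases, reductases, sulfation, estrogen hydroxylation and methylation), columns are the 9 libraries, and colour is log2(FPKM + 1) minus the mean of the 3 controls. Hsd17b14 and Cyp1a1 are raised in the 3 BPB libraries, and Cyp1b1 in those and in BPAF 1 and BPAF 3.

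The genes whose levels ran closest to the 3 leading enzymes over the 9 libraries were picked by Pearson r of log2(FPKM + 1). For Srd5a1 they were Sord (r = 0.996), which encodes sorbitol dehydrogenase, Adck5 (0.988) and D10Jhu81e (0.982). Sord had 17.4 to 23.4 FPKM in BPB, 21.4, 5.77 and 21.1 FPKM in BPAF 1, 2 and 3, and 4.73 to 6.44 FPKM in control, with the same high set of 5 and low set of 4 as Srd5a1. For Akr1c14 they were Tmem200a (0.981), Tmprss11d (0.976), a serine protease gene, and Fam3b (0.963), which encodes a secreted cytokine-like protein. Tmprss11d had 0 to 1.26 FPKM in BPB, 0 to 3.67 FPKM in BPAF and 12.6 to 34.5 FPKM in control. For Hsd17b11 they were Samd12 (0.976), Gmds (0.963), an enzyme of fucose donor synthesis, and Padi1 (0.953), a peptidylarginine deiminase. Padi1 had 5.15 to 109 FPKM in BPB, 22.5 to 309 FPKM in BPAF and 135 to 987 FPKM in control. These values describe 9 libraries that share the split between exposed and control mice, and they were chosen as the highest among all tested genes.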

How the data were processed

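Poly(A) RNA from mouse uterus was sequenced from a stranded kit, per the labels' protocols, in 9 libraries, 3 per group, assigned by sample title. The files give gene symbols with values read as FPKM, computed by the authors and deposited without a unit in the header. The unit was inferred: for low values of genes that GENCODE M21 gives 1 transcript, value times length came within 0.01 of a whole number of steps in 87.9% to 90.9% of cases. The step gave the library totals, and whole reads (within 0.05 of a read, plus 1e-05 of the reads) were recovered for 97.8% of tested genes. No source used here names the aligner, counting tool, strand setting or build. Of 34745 lines, 126 with a repeated symbol were left out. Genes that reached 1 FPKM in 3 or more libraries were tested with limma 3.58.1 (R 4.3.3), trend and robust, on log2(FPKM + 1), all 9 libraries in 1 fit, group only, two-sided, with Benjamini-Hochberg adjustment. The limma and voom fits were tested on simulated data. Intervals and limits from reads cover counting error only.

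The enzymes, lists and tests were chosen with earlier results of these data known. Named are all listed enzymes, the 3 genes most like each of the 3 leading enzymes, and called or leading genes of the steroid list. Same-numbered libraries deviated together for BPAF and BPB (r of their deviations from group means 0.34, 0.34 and 0.48), and not for BPB and control (-0.37, -0.13 and -0.4) or BPAF and control (-0.16, -0.08 and -0.25). Alternatives were another pseudocount, no filter, 6 libraries alone, median-ratio scaling, a replicate block, each library left out and, added after the values were seen, voom and a block within BPAF and BPB. Promoter sequences are from RefSeq.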

Additional observations from a re-analysis of the deposited data

How the results depend on the processing

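Of 21 log2 differences (7 enzymes, 3 comparisons), 14 kept their direction in every alternative, and none that was called turned round. The 1 enzyme called in BPB against control became 0 with a pseudocount of 0.1, with no filter, with the replicate block and with voom, 2 with the 6 libraries alone, and 0 to 2 with 1 library left out. All tested genes called there (351) became 152 with a pseudocount of 0.1, 163 with no filter, 19 with the replicate block, 45 with voom, and 1 to 427 with 1 library left out. In BPAF against control the enzymes called (0) ran from 0 to 1 with 1 library left out. All genes called there (3) became 0 with the 6 libraries alone and 0 with the replicate block, and ran from 1 to 10 with 1 library left out. In BPAF against BPB, where same-numbered libraries deviated together, all genes called (33) became 0 with a pseudocount of 0.1, 11 with no filter, 0 with the 6 libraries alone, 0 with the replicate block, 0 with both, 0 with voom, and ran from 0 to 234 with 1 library left out. The cause was not tested. For none of the comparisons do the labels say that a replicate number marks a shared litter or batch. Over all genes the median log2 difference against control was -0.04 in BPB and -0.02 in BPAF under median-ratio scaling, in place of 0.15 and 0.21, and the medians of the 7 enzymes became 0.07 and -0.68. Tests on deposited counts were left out, since the files hold FPKM, and voom used reads recovered from those values. With 3 libraries a group and 2 to 23 reads per library for Hsd17b1, and at most 2 for Sult1e1, depth limits those enzymes.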
